A study of Homo sapiens with 6 samples.

Results

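The Notch genes described here are the receptors NOTCH1, NOTCH2 and NOTCH3, the ligands JAG1, JAG2, DLL1 and DLL4, and the targets HES1, HEY1 and NRARP. They were chosen because Notch mRNAs are reported targets of the ZFP36 family of RNA-binding proteins. Their symbols were mapped to Ensembl identifiers with GENCODE 29, and all 10 stood among the 56982 identifiers found in both deposited tables. In Notch signalling, a Jagged or Delta-like ligand on one cell binds a receptor on its neighbour, and an ADAM protease and then gamma-secretase cut the receptor. The freed intracellular domain enters the nucleus, joins RBPJ and a Mastermind protein on DNA, and turns on HES and HEY repressor genes. In bone, the pathway is known for holding osteoblast precursors back from maturing.

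Poly(A) RNA was sequenced from U2OS cells, a human osteosarcoma line, in log-phase growth. Of the 6 libraries, 3 came from the clone G3C2, edited with CRISPR/Cas9 and labelled ZFP36L1 deficient, and 3 came from wild-type (WT) U2OS cells. ZFP36L1 is a protein that binds AU-rich elements in 3′ untranslated regions (UTRs) and brings in the enzymes that shorten poly(A) tails. The replicates of each genotype carried the labels 1, b and c, and a first table held replicate 1 while a second held b and c. Values were FPKM, fragments scaled to transcript length and to the size of the library, so levels of different genes are compared per length. The mutant was 1 clone, so the genotype and the clone cannot be told apart, and nothing says that the libraries are separate cultures, so each p-value rests on a spread between samples that may be technical.

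The 2 tables had separate scales, with summed FPKM of 712633 (G3C2) and 705014 (WT) in the first and between 235190 and 319282 in the second. The second held between 22600000 and 28960000 recovered reads per library, and the depth of the first is unknown. In replicate c the totals behind the FPKM did not follow the recovered reads. They were 22558800 for G3C2, with 25830000 reads recovered, and 25406400 for WT, with 22600000 recovered. Differences of G3C2 minus WT in replicate c are therefore more positive in FPKM than per recovered read. Mitochondrial genes took between 4.93% and 8.83% of the summed FPKM in 5 libraries and 13.96% in WT replicate c. ZFP36L1 itself had 238, 105 and 82.4 FPKM in G3C2 replicates 1, b and c, against 165, 57.1 and 128 FPKM in WT (log2 fold change 0.26, SE 0.33, limma adjusted p = 0.752). Without replicate c, ZFP36L1 passed as higher in G3C2 (0.70, limma adjusted p = 0.0237). That fit had 1 residual degree of freedom and called 6.03% of all tested genes. The ZFP36L1 log2 fold change was -0.05 without replicate b and -0.07 with limma-voom on the second table, and neither passed. The position of the edit is not given in the sources used here, so this mRNA level does not check the genotype. Per the labels, the deficiency was checked by sequencing and by western blot. Of 9 osteoblast lineage markers, RUNX2, COL1A1, SPARC and SPP1 had at least 1 FPKM in every library, whereas SP7, COL1A2, ALPL, BGLAP and IBSP stayed under 1 FPKM. Of 5 endothelial markers, PECAM1, CDH5, KDR and TEK stayed under 1 FPKM in every library, as did all 5 blood markers, while VWF had at most 1.87 FPKM. Of 4 epithelial markers EPCAM had between 3.29 and 7.08 FPKM in G3C2 and between 3.05 and 18.7 FPKM in WT, and KRT14 had at most 6.30 FPKM. CDH1 had at most 0.382 FPKM in G3C2 and 1.01 FPKM in WT, and KRT5 stayed under 1 FPKM. Of 4 smooth muscle and pericyte markers CSPG4 had between 8.28 and 12.9 FPKM in G3C2 and between 6.84 and 8.18 FPKM in WT. MYH11 and DES of that list stayed under 1 FPKM in every library, and RGS5 had at most 1.80 FPKM in G3C2 and 2.29 FPKM in WT.

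The letters TATTTAT, a core that ZFP36 proteins are known to bind, were searched on the sense strand of each gene's longest annotated 3′ UTR. They occurred in 7 of the 10 Notch genes, and in 31.1% of the 19128 genes with an annotated 3′ UTR. These shares were not matched for length. The 3′ UTRs of the 7 ran from 668 bases (DLL1) to 3892 bases (NOTCH2), against a median of 1103 bases over all genes. The 3′ UTR of JAG1 held 5 matches, that of NOTCH1 held 4 and that of NOTCH3 held 2, counting overlapping ones. The 3′ UTRs of NOTCH2, DLL1, DLL4 and NRARP held 1 match each, whereas those of JAG2, HES1 and HEY1 held none. The first match is shown for each receptor and for the ligand JAG1, because these are the tested genes that hold the letters. They are written 5′ to 3′ with TATTTAT in capitals, from GENCODE 29 transcripts on GRCh38, all on the minus strand, at chr9:136495905-136495933 for NOTCH1, chr1:119911569-119911597 for NOTCH2, chr19:15160463-15160491 for NOTCH3 and chr20:10639129-10639157 for JAG1.
NOTCH1: tttttttagTATTTATTTATgtactttta
NOTCH2: attcatacattTATTTATaaagtcagtga
NOTCH3: cagtcttccttTATTTATaatgggtgggg
JAG1: catagtttTATTTATATTTATtgactctt
In NOTCH1 and JAG1 the stretch holds a pair of overlapping matches, and in NOTCH2 and NOTCH3 it holds a single one. The NOTCH2 stretch comes from the transcript with the longest coding part. A match describes the letters and does not show binding.

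The promoters of the Notch genes were searched for TGGGAA, the core letters that RBPJ is known to bind, on both strands from 250 bases before each start. RefSeq promoters on GRCh38.p14 were matched for NOTCH1, NOTCH2, NOTCH3, JAG1, JAG2, DLL4, HES1 and NRARP. HES1 was the single one of these 8 with a match, and it held 2 on its coding strand, with first bases 84 and 70 bases before the start. Over 35116 promoters of the same length, 24% held at least 1 match and 3.8% held 2 or more. The HES1 stretch at chr3:194136044-194136103 on the plus strand is shown because HES1 had the largest fitted difference of the Notch genes, with TGGGAA in capitals.
HES1: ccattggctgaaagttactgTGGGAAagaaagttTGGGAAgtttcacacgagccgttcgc

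No Notch gene passed the test for a difference between G3C2 and WT cells. Differences were fitted with limma on log2(FPKM + 1), with a term for table, over the 15001 genes that had at least 1 FPKM in at least 2 libraries, and p-values were adjusted over all of them. Of the 10 Notch genes 7 were tested, and DLL1, DLL4 and NRARP were below that level. At an adjusted p of 0.05, limma called 0 of the 7, against a background of 0.0467% of all tested genes (3 higher and 4 lower in G3C2). At an unadjusted p of 0.05, limma singled out JAG1 and HES1, 2 of 7 genes, against 13.6% of all tested genes. When limma-voom was run on the second table's recovered reads, 0 of the 7 passed and 1, HES1, had an unadjusted p under 0.05. Of all 14988 genes in that fit, 0 passed in either direction and 1210 had an unadjusted p under 0.05. In FPKM, JAG1 and JAG2 were higher in G3C2 in all 3 replicate pairs, against 17.8% of all tested genes. HES1 and HEY1 were lower in all 3 pairs, against 18.6%. Per recovered read, JAG1 was not higher in G3C2 in replicate c. The median log2 fold change of the 7 genes was 0.20, and that of all tested genes was 0.01. The difference between tables in the genotype effect did not pass for any of the 7 genes (limma interaction adjusted p between 0.948 and 0.955). It passed for no tested gene, the lowest limma interaction adjusted p over all of them being 0.948. The first table held 1 library of each genotype, so this result does not show that the tables agree.

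**Figure D1:**
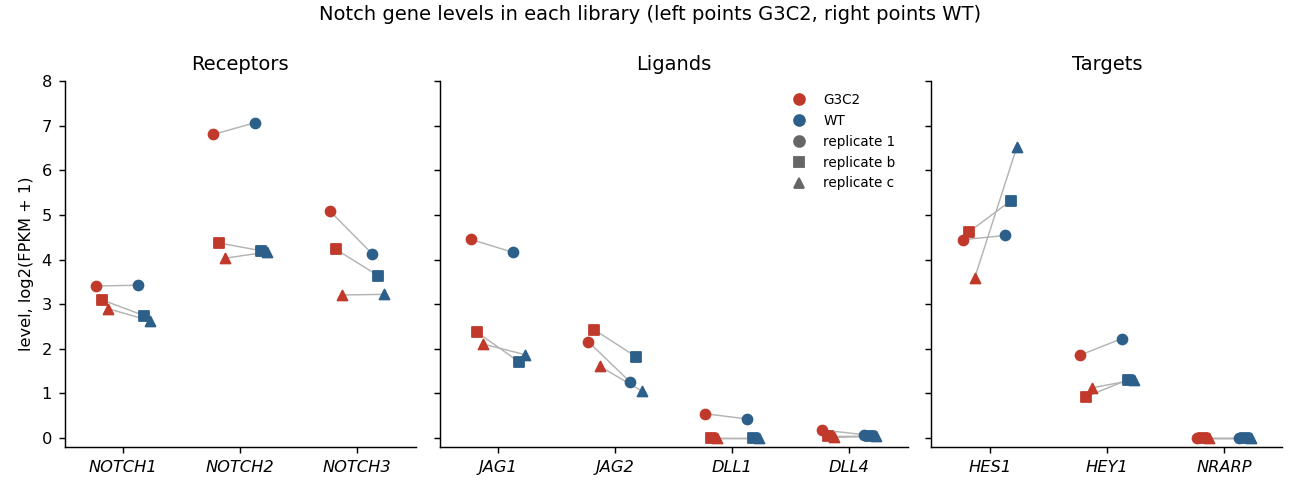
Level of each Notch gene on the log2(FPKM + 1) scale in the 6 libraries, with G3C2 points left of WT points, symbols for replicates 1, b and c, and lines joining libraries with the same label. NOTCH2 and JAG1 sit highest in replicate 1, which came from the first table, and HES1 in WT replicate c stands at 91.0 FPKM against 11.05 FPKM in G3C2 replicate c.

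The receptors were all expressed, and their values in G3C2 and WT cells lay close together except for NOTCH3. NOTCH1 (ENSG00000148400, chr9:136494433-136545786, minus strand, GRCh38), a receptor that many cell types carry, had 9.60, 7.54 and 6.45 FPKM in G3C2 replicates 1, b and c, against 9.73, 5.69 and 5.18 FPKM in WT. In FPKM, both G3C2 libraries of the second table lay above both WT libraries, whereas in the first table the genotypes were nearly level. Per recovered read, replicate c of G3C2 did not lie above WT, with 1511 of 25830000 reads against 1365 of 22600000 in WT replicate c. The fitted log2 fold change came to 0.20 (SE 0.15, limma adjusted p = 0.588, with n = 3 libraries of each genotype). The antisense gene NALT1, next to NOTCH1, had 0.989, 1.73 and 1.51 FPKM in G3C2, against 0.727, 0.867 and 2.46 FPKM in WT. The strand setting of the authors' counting is not given in the sources used here, so reads of antisense partners cannot be told apart.

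NOTCH2 (ENSG00000134250, chr1:119911553-120069626, minus strand) was the most abundant receptor in every library. It had 111, 19.7 and 15.3 FPKM in G3C2 replicates 1, b and c, against 133, 17.3 and 17.0 FPKM in WT. The second-table values of the genotypes overlap, and G3C2 was the higher one in replicate b alone. Its log2 fold change was -0.08 (SE 0.16, limma adjusted p = 0.862), and in the second table alone it was 0.02. NOTCH2NLA, a near-identical partial copy of NOTCH2 with which reads can be shared, had at most 0.274 FPKM in G3C2 and at most 0.327 FPKM in WT.

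NOTCH3 (ENSG00000074181, chr19:15159038-15200981, minus strand), a receptor best known from vascular smooth muscle, had the widest spread of pair differences among the receptors. It had 32.8, 17.7 and 8.22 FPKM in G3C2 replicates 1, b and c, against 16.4, 11.4 and 8.31 FPKM in WT. In FPKM, G3C2 was above WT in replicates 1 and b and level with it in replicate c. The pair differences were 0.96, 0.59 and -0.01 on the log2(FPKM + 1) scale. Per recovered read, G3C2 lay below WT in replicate c, with 1742 of 25830000 reads against 1984 of 22600000. The log2 fold change of NOTCH3 was 0.51 (SE 0.31, limma adjusted p = 0.517). Without replicate c it was 0.77 and passed (limma adjusted p = 0.0213, 1 residual degree of freedom), and that fit called 6.03% of all tested genes. It was 0.86 without G3C2 replicate c, 0.28 without G3C2 replicate b, 0.29 without either library of replicate 1 and 0.12 with limma-voom, and none of these passed (limma adjusted p between 0.124 and 0.948). Of the osteoblast lineage markers, RUNX2 had 46.4, 15.3 and 6.41 FPKM in G3C2 replicates 1, b and c, against 18.7, 7.27 and 7.57 FPKM in WT. COL1A1 had 899, 248 and 192 FPKM in G3C2, against 209, 82.1 and 184 FPKM in WT. Like NOTCH3, both markers lay above WT in replicates 1 and b and near it in replicate c in FPKM. SPARC and SPP1, the other markers of that list expressed in every library, lay clearly below WT in replicate c. SPARC had 908, 278 and 191 FPKM in G3C2, against 718, 256 and 271 FPKM in WT. SPP1 had 8.38, 10.6 and 2.33 FPKM in G3C2, against 9.69, 8.90 and 20.5 FPKM in WT. The part of these markers in the NOTCH3 values was not tested.

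The makeup of the receptor pool followed these values. NOTCH2 made up 72.3%, 43.8% and 51.1% of the summed FPKM of the 3 receptors in G3C2 replicates 1, b and c, against 83.6%, 50.3% and 55.7% in WT. NOTCH3 made up 21.4%, 39.4% and 27.4% in G3C2, against 10.3%, 33.2% and 27.3% in WT. In every pair the NOTCH2 share was smaller and the NOTCH3 share larger in G3C2, with hardly any difference for NOTCH3 in replicate c. NOTCH1 made up between 6.27% and 21.5% in G3C2 and between 6.11% and 17.0% in WT. These shares also differed with the table. The level in replicate 1 over the mean of replicates b and c was 6.32 in G3C2 and 7.77 in WT for NOTCH2. It was 1.37 and 1.79 for NOTCH1, and 2.53 and 1.66 for NOTCH3.

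Of the ligands, JAG1 and JAG2 were expressed and DLL1 and DLL4 were near or at 0. JAG1 (ENSG00000101384, chr20:10637684-10673999, minus strand), a membrane ligand that activates Notch receptors, had 20.9, 4.17 and 3.31 FPKM in G3C2 replicates 1, b and c, against 16.9, 2.26 and 2.65 FPKM in WT. In FPKM, G3C2 was above WT in each pair, and in the second table both G3C2 libraries lay above both WT libraries. The pair differences were 0.29, 0.66 and 0.24, and the log2 fold change was 0.40 (SE 0.15, limma adjusted p = 0.320). In recovered reads of the second table, JAG1 had 1027 and 694 in G3C2 replicates b and c, against 623 and 626 in WT. All recovered reads of replicate c came to 25830000 in G3C2 and 22600000 in WT. Per recovered read, JAG1 was therefore not higher in G3C2 in that replicate.

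JAG2 (ENSG00000184916, chr14:105140981-105168824, minus strand), the second Jagged ligand, had 3.47, 4.39 and 2.04 FPKM in G3C2 replicates 1, b and c, against 1.38, 2.53 and 1.07 FPKM in WT. G3C2 was above WT in each pair, by 0.91, 0.61 and 0.56, but the genotypes overlap because G3C2 replicate c lay below WT replicate b. Its log2 fold change was 0.69 (SE 0.30, limma adjusted p = 0.385). JAG1 was 6.01, 0.95 and 1.62 times as abundant as JAG2 in G3C2, against 12.2, 0.893 and 2.48 times in WT, so neither ligand led in every library. The level in replicate 1 over the mean of replicates b and c was 5.58 for JAG1 and 1.08 for JAG2 in G3C2. In WT it was 6.87 and 0.768, so the balance of the ligands differed with the table.

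**Figure D2:**
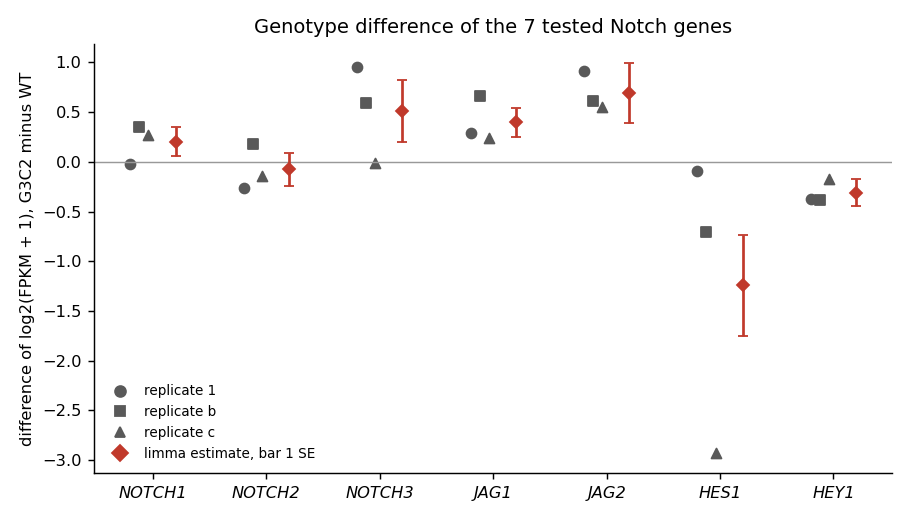
Difference of log2(FPKM + 1), G3C2 minus WT, for the 7 tested Notch genes, with a grey symbol for each replicate and a red diamond with a bar of 1 SE for the limma estimate. JAG1 and JAG2 lie above 0 and HES1 and HEY1 below 0 in all 3 pairs, and the HES1 pairs run between -0.09 and -2.93.

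JAG2 lies on distal chromosome 14, where most neighbouring genes were higher in G3C2 in every pair. Of the 28 tested protein-coding genes within 2 Mb of JAG2, 26 were higher in G3C2 in all 3 pairs (92.9%), against 18.8% of the 12152 tested protein-coding genes. Their median log2 fold change was 0.75, close to the 0.69 of JAG2, and their median differences were 0.64, 0.55 and 1.25 in replicates 1, b and c. Around the other Notch genes the neighbours' median lay between -0.20 (HES1, 13 neighbours) and 0.09 (NOTCH2, 12 neighbours). JAG1, with a log2 fold change of 0.40, had 6 neighbours with a median of 0.04. Genes in a window share their chromosome segment and are not independent, and the part of the neighbourhood in the JAG2 difference was not tested.

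**Figure D3:**
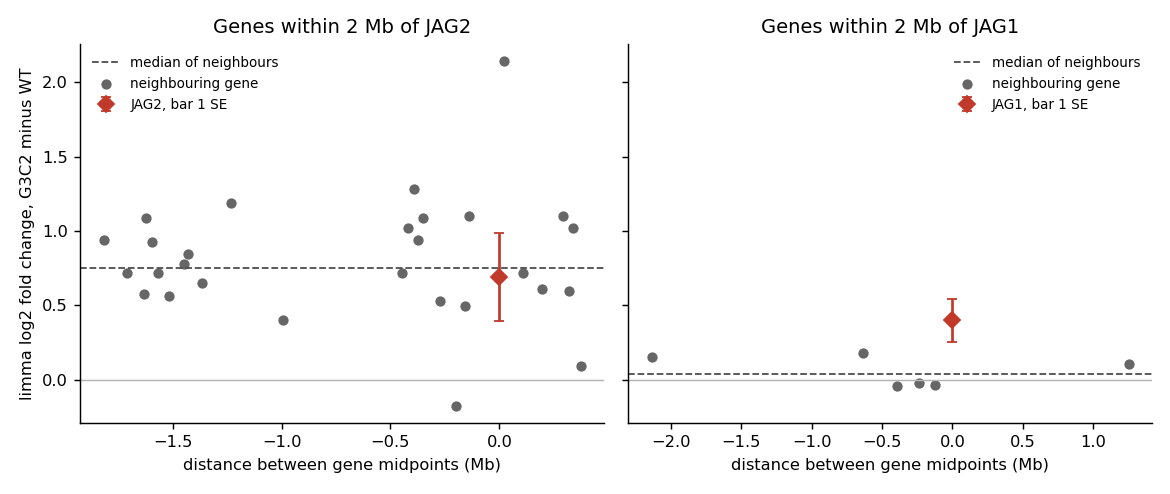
Log2 fold change, G3C2 minus WT, of tested protein-coding genes within 2 Mb of JAG2 and of JAG1, against the distance between gene midpoints in Mb, with the ligand itself as a red diamond (bar, 1 SE) and the neighbours' median as a dashed line. The neighbours of JAG2 centre on 0.75 and JAG2 lies among them, whereas the neighbours of JAG1 centre on 0.04 and JAG1 lies above them.

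DLL1 (ENSG00000198719, chr6:170282206-170306565, minus strand), a Delta-like ligand, had 0.457 FPKM in G3C2 replicate 1, against 0.344 FPKM in WT replicate 1, and was listed at 0 in the 4 libraries of the second table. A listed 0 is not read as absence, since 60 of 7624 protein-coding genes with at least 10 FPKM in both first-table libraries were also listed at 0 in all 4. DLL1 overlaps FAM120B on the opposite strand, which had 15.5, 0.938 and 0.0441 FPKM in G3C2, against 11.1, 0.682 and 0.548 FPKM in WT. DLL4 (ENSG00000128917, chr15:40929333-40939073, plus strand), a ligand known from sprouting blood vessels, had 0.132, 0.0238 and 0.00933 FPKM in G3C2, against 0.0527, 0.0284 and 0.0248 FPKM in WT. In the second table that came to 3 and 1 reads in G3C2 replicates b and c, against 4 and 3 reads in WT, and no difference was detectable at this depth.

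HES1 had the largest fitted difference of the Notch genes, and that size rested on replicate c. HES1 (ENSG00000114315, chr3:194136145-194138732, plus strand), a repressor and the classical direct Notch target, had 20.8, 23.6 and 11.05 FPKM in G3C2 replicates 1, b and c, against 22.2, 39.0 and 91.0 FPKM in WT. G3C2 was below WT in each pair, only slightly so in replicate 1, and in the second table both G3C2 libraries lay below both WT libraries. The recovered reads were 1288 and 514 in G3C2 replicates b and c, against 2383 and 4768 in WT. The pair differences were -0.09, -0.70 and -2.93, and the log2 fold change was -1.24 (SE 0.51, limma adjusted p = 0.365). It was -0.40 without replicate c (limma adjusted p = 0.185) and -0.73 without WT replicate c (limma adjusted p = 0.710).

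Among tested protein-coding genes, HES1 stood at percentile 53.8, 83.6 and 63.1 in G3C2 replicates 1, b and c, against 54.2, 90.7 and 97.9 in WT. WT replicate c, where HES1 stood highest, was also the library with 13.96% of its FPKM from mitochondrial genes, whose part in the HES1 value was not tested. Relative to the summed receptors, HES1 was at a ratio of 0.136, 0.524 and 0.368 in G3C2, against 0.140, 1.13 and 2.99 in WT. HES1 also differed between the tables. Its level in replicate 1 over the mean of replicates b and c was 1.20 in G3C2 and 0.342 in WT, whereas the median over protein-coding genes was 2.58 in G3C2 and 2.88 in WT.

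HEY1 (ENSG00000164683, chr8:79764010-79767863, minus strand), a related repressor that also answers to Notch, had 2.62, 0.899 and 1.18 FPKM in G3C2 replicates 1, b and c, against 3.69, 1.47 and 1.46 FPKM in WT. G3C2 was below WT in each pair, and in the second table both G3C2 libraries lay below both WT libraries, which were nearly level. The pair differences were -0.37, -0.38 and -0.18, closer together than those of HES1. The log2 fold change was -0.31 (SE 0.14, limma adjusted p = 0.399). HEY1 was a low-abundance gene, with 77 and 86 recovered reads in G3C2 replicates b and c, against 141 and 120 reads in WT. NRARP (ENSG00000198435, chr9:137300482-137302251, minus strand), which encodes a feedback inhibitor of the pathway, was listed at 0 in all 6 libraries.

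**Figure D4:**
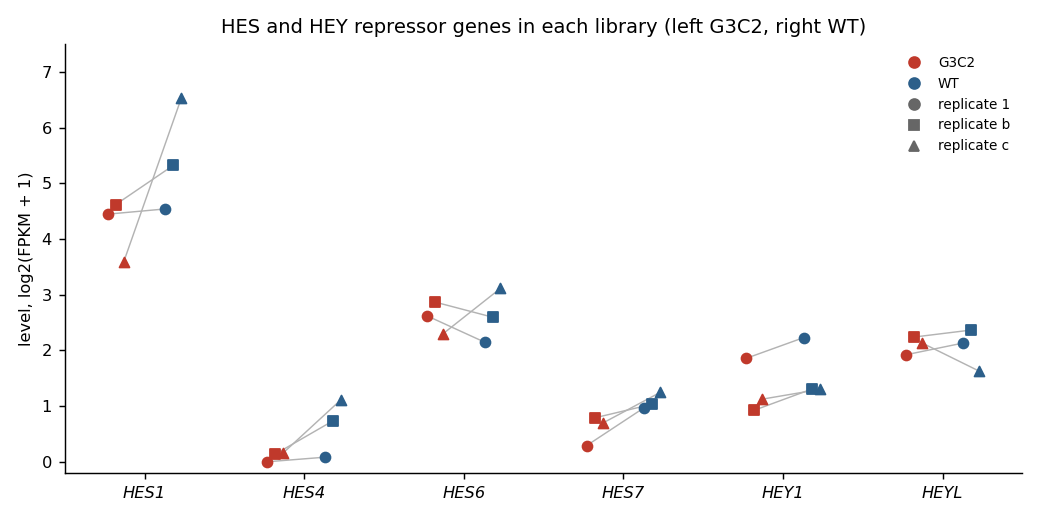
Level of HES and HEY repressor genes on the log2(FPKM + 1) scale in each library, with G3C2 points left of WT points and symbols for replicates 1, b and c. HES1, HES4, HES7 and HEY1 lie lower in G3C2 in each pair, whereas HES6 and HEYL go both ways.

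Other genes of the HES and HEY family did not all go one way. HES7, a repressor known from the segmentation clock of the embryo, had 0.223, 0.727 and 0.617 FPKM in G3C2 replicates 1, b and c, against 0.959, 1.05 and 1.37 FPKM in WT. All 3 G3C2 libraries lay below all 3 WT libraries, and the log2 fold change was -0.49 (SE 0.15, limma adjusted p = 0.255). HES7 reached 1 FPKM in WT replicates b and c alone. It entered the test only through the group where it was higher, so its values and its unadjusted p are not support for a difference. The recovered reads were 36 and 26 in G3C2 replicates b and c, against 58 and 65 in WT. HES4, chosen after its values were seen and not tested, had 0, 0.101 and 0.119 FPKM in G3C2, against 0.0586, 0.663 and 1.16 FPKM in WT. In reads of the second table HES4 had 3 and 3 in G3C2 replicates b and c, against 22 and 33 in WT. HES6 and HEYL, also chosen after their values were seen, had log2 fold changes of -0.02 and 0.06. HES5 and HEY2 were listed at 0 throughout.

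A list of 50 further Notch pathway genes was described by role, and 43 of them were tested. With limma, 0 passed in either direction, against 0.0467% of all tested genes, and 5 had an unadjusted p under 0.05, against 13.6%. These 5 were ADAM10, APH1B, SNW1, HES7 and CCND1. Of the 43 genes 11 were higher and 10 were lower in G3C2 in all 3 pairs, against 17.8% and 18.6% of all tested genes. The median log2 fold change was 0.01, as over all tested genes, with a range of -0.80 for MYC to 0.85 for APH1B. Without replicate c, limma called 3 of the list, APH1B, DTX3 and MYC, where 6.03% of all tested genes were called.

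Upstream of the receptors, DLK2 and DLL3 were the further ligand-like genes detected, with means over the 6 libraries of 4.80 and 2.31 FPKM, and the fourth receptor gene NOTCH4 was listed at 0 in the second table. DLL3, a divergent ligand known to inhibit Notch in the cell that makes it, had a log2 fold change of 0.45 (limma adjusted p = 0.473). Its G3C2 values were 2.80, 1.92 and 3.73 FPKM, against 2.59, 1.67 and 1.13 FPKM in WT, so replicate c gave most of it. POFUT1, which adds the O-fucose that receptors need, and LFNG, a fringe enzyme that extends it, averaged 54.1 and 31.1 FPKM. MFNG, a second fringe enzyme, had a log2 fold change of -0.37 (limma adjusted p = 0.572), and without either library of replicate 1 it was -0.10. Its G3C2 values were 1.01, 0.546 and 1.08 FPKM, against 2.81, 0.565 and 1.35 FPKM in WT. The ubiquitin ligases that activate ligands included NEURL1B at 16.2 FPKM and MIB1 at 6.04 FPKM, and MIB2 had a log2 fold change of -0.32 (limma adjusted p = 0.457).

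Among the proteases, the gamma-secretase subunits APH1A and NCSTN averaged 71.8 and 71.2 FPKM. APH1B, an alternative form of the APH1 subunit, had 24.1, 5.90 and 3.61 FPKM in G3C2 replicates 1, b and c, against 8.08, 2.25 and 3.59 FPKM in WT. Like NOTCH3, it was above WT in replicates 1 and b and level in replicate c in FPKM. Its log2 fold change was 0.85 (SE 0.28, limma adjusted p = 0.276). Without replicate c it was 1.28 and passed (limma adjusted p = 0.00879). ADAM10, the sheddase that makes the first cut of an activated receptor and a gene chosen after its values were seen, had a log2 fold change of 0.35 (limma adjusted p = 0.341).

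In the nucleus, the DNA-binding partner RBPJ averaged 37.5 FPKM and the coactivator SNW1 averaged 52.6 FPKM. SNW1 had a log2 fold change of 0.52 (SE 0.19, limma adjusted p = 0.320), and like JAG2 it lies on chromosome 14. The corepressor KDM5A, a histone demethylase, averaged 27.1 FPKM, with a log2 fold change of 0.16 (limma adjusted p = 0.652). Of the genes that limit or degrade receptors, ITCH averaged 24.8 FPKM and NUMB 20.8 FPKM, and DTX4 had a log2 fold change of -0.36 (limma adjusted p = 0.455). Of the further targets, CCND1 had a log2 fold change of 0.47 (limma adjusted p = 0.338) and MYC -0.80 (limma adjusted p = 0.496). MYC had 47.7, 19.6 and 69.9 FPKM in G3C2, against 120, 56.4 and 53.4 FPKM in WT, so replicates 1 and b lay below WT and replicate c above it. Many factors besides Notch are known to act on both genes.

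**Figure D5:**
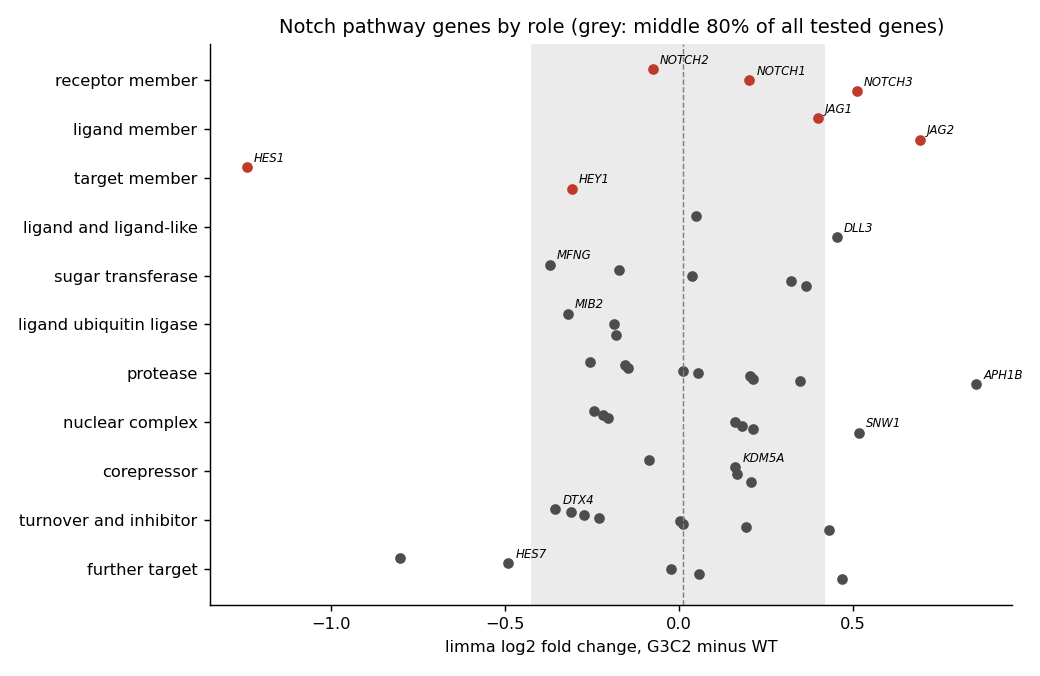
Limma log2 fold change, G3C2 minus WT, of the 7 tested Notch genes (red) and the 43 other tested pathway genes (dark), by role, with the Notch genes named and, in each role, the gene with the largest difference in the same direction in all 3 pairs. The grey band runs between the 10th and 90th percentiles of all tested genes, -0.42 and 0.42, and NOTCH3, JAG2 and HES1 are the Notch genes outside it.

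The fitted differences are set side by side here for the tested genes with TATTTAT and for those without it. Of the tested genes with the letters, NOTCH1, NOTCH3 and JAG1 had log2 fold changes of 0.20, 0.51 and 0.40. NOTCH2 had -0.08 (SE 0.16), and 0.02 in the second table alone, so its direction is not settled. Of the tested genes without them, HES1 had -1.24 and HEY1 had -0.31. JAG2 had 0.69, and its neighbours had a median of 0.75. The looser letters ATTTA occurred 14 times in NOTCH2, 9 in JAG1, 7 in HEY1, 6 in NOTCH1, 4 in NOTCH3 and 1 in JAG2. They did not occur in HES1. Of all genes with an annotated 3′ UTR 67.6% held ATTTA, and these counts were not scaled to length. None of these differences passed the test over all genes, and the sequence was not tested against them. In bulk RNA, fewer cells that express a gene and less of its RNA per cell cannot be told apart.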

How the data were processed

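The authors' gene values were FPKM, per the file headers, and were deposited as a pair of tables. CASAVA, HISAT2 and the build GRCh38.p12 appear in the submitters' processing notes; the counting and strand settings are not given in the sources used here. Groups and replicate labels came from the sample titles. Genotype differences were fitted to log2(FPKM + 1) by limma 3.58.1 (R 4.3.3), table being a covariate and the prior variance following a mean trend, two-sided, with Benjamini-Hochberg adjustment at 0.05. Genes needed at least 1 FPKM in at least 2 of 6 libraries, which left 15001. For low genes the pseudocount makes fold changes too small. The fit was tested on simulated data. Reads of the second table were recovered with GENCODE 29 exon lengths, and between 97.8% and 97.9% of values under 200 reads were whole within 0.02 reads.

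Libraries with the same label deviated together from their group means (r = 0.93 for label 1, 0.80 for b and 0.60 for c). All were over 0.1, so the labels were taken as pairs, although separate tables alone produce such a pattern, and within the second table r was -0.17. Alternatives were a pseudocount of 0.1, other filters, scalings and variance models, the second table alone, a replicate block, a fit without the table term, limma-voom on recovered reads, and each library and pair left out.

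The members and lists were chosen with earlier results of these data known. All 10 members are named. Of the other pathway genes, those named were, in each role, up to 2 with the highest mean FPKM and the 1 with the largest difference in the same direction in all 3 pairs; others were chosen after their values were seen, and 1 gene is not reported here. Further steps used Python 3.11.15, pandas 2.3.3 and matplotlib 3.10.9.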

Additional observations from a re-analysis of the deposited data

How the results depend on the processing

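No Notch gene passed the adjusted threshold under 20 of the 21 alternatives (at a mean FPKM of at least 5, 5 of the 7 were tested), and without replicate c, a fit with 1 residual degree of freedom, limma called 1, NOTCH3 (0.77), and 3 other pathway genes. Leaving out libraries or pairs gave between 0 and 1 Notch genes and between 0 and 3 other pathway genes. Over all genes, 3 were called higher and 4 lower. The replicate block gave 0 higher and 1 lower, and no Notch gene's call differed under it. No filter, no table term, the second table alone with or without the replicate block, and limma-voom each gave 0 higher and 0 lower, with between 223 and 2909 genes at an unadjusted p under 0.05. A mean FPKM of at least 5 gave 1 lower, and equal medians gave 5 higher. Leaving out libraries or pairs gave between 0 and 448 higher and between 0 and 457 lower, and the largest counts came without replicate c. A crossed block, added after seeing the data, gave 3 higher and 5 lower.

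Reversed directions were NOTCH2 at 0.0185 in the second table alone, with and without the replicate block (leaving out libraries, -0.20 to 0.0185), KDM5A at -0.0517 with limma-voom, and ZFP36L1 at -0.0686 with limma-voom (leaving out libraries, -0.0498 to 0.70). The cause was not tested. HES1 lay between -2.07 and -0.40, NOTCH3 between 0.12 and 0.86, JAG1 between 0.27 and 0.49, JAG2 between 0.49 and 0.97, NOTCH1 between 0.11 and 0.31 and HEY1 between -0.69 and -0.21, each in 1 direction throughout. Of the other pathway genes, MFNG lay between -0.62 and -0.10, DLL3 between 0.10 and 0.76, MIB2 between -0.57 and -0.17, DTX4 between -0.83 and -0.13, APH1B between 0.54 and 1.28, SNW1 between 0.29 and 0.65 and HES7 between -1.07 and -0.39. Limma-voom moved the median of all genes to -0.10. Depth limits DLL4, which had between 1 and 4 reads, and the first table gives no depth.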
